A study of Mus musculus with 8 samples.

Results

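Old and young wild-type (WT) mice were compared by the RNA of their LSK cells, the lineage-negative, Sca1-positive, Kit-positive cells of the bone marrow. The comparison held 4 of the 8 libraries of the series, chosen by their labels alone: 2 from old and 2 from young WT mice. Old mice were over 1 year of age and young mice 8 to 12 weeks. Each age had 1 library in batch 1 and 1 in batch 2, and the 4 WT mice came from 4 different litters. The WT mice were wild type for Asxl2, a chromatin regulator, and each had an Asxl2 KO littermate whose library made up the other 4. Sex, strain and any pooling of mice were not given in the labels. PolyA RNA was amplified with the SMART-Seq v4 low-input kit, and the deposited tables gave estimated counts and TPM (an abundance of transcripts scaled for their length and for depth).

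The LSK gate holds the blood stem cells together with the multipotent progenitors that divide to feed all blood lineages. With age, the mouse marrow gathers more stem cells as defined by surface markers, while each of them makes less blood after transplantation and fewer lymphocytes. Platelet-associated and adhesion genes are known to be raised in aged stem cells. In a bulk sample, more cells of one type and more RNA per cell cannot be told apart.

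Some libraries stood apart before any comparison. WT library totals ran from 56770463 to 80388500 estimated counts. The old library of batch 1 nearly lacked RNA of mature granulocytes: the 18 neutrophil markers summed to 17.2 TPM there, against 794 to 1231 TPM in the other WT libraries. In the same library the 19 markers of mast cells, basophils and eosinophils summed to 94.1 TPM, against 1322 to 2210 TPM. Of the eosinophil granule genes, Prg2 was at 1.00 TPM there and Ear1 at 0. The old library of batch 2 held the most B and plasma cell RNA, 5987 TPM over 19 markers against 1009 to 1871 TPM, with the light chain constant gene Igkc at 4207 TPM. The RNA of the inactive X chromosome, Xist, was at 3.61 TPM in the old library of batch 1 and at most 0.0284 TPM in the other WT libraries. The Y-linked Ddx3y went the other way, 0.225 TPM against 23.0 to 55.9 TPM, so in batch 1 age and sex-linked RNA cannot be told apart. The young library of batch 2 had relatively more RNA of long transcripts, with a slope of log2 TPM on log2 length of -0.273 against -0.556 to -0.58. The gate's own markers were present in all 4: Kit at 133 and 547 TPM in young and 146 and 219 TPM in old mice (batch 1 and batch 2), Ly6a (Sca1) at 149.6 TPM or more, and Cd34 at 724.6 TPM or more. The T cell receptor gene Cd3e reached at most 0.313 TPM, while the 20 T and NK cell markers summed to 219.8 to 240.3 TPM, mostly from the signalling genes Lck (71.3 to 100.7 TPM) and Lat (94.7 to 124.1 TPM). Asxl2 itself was at 23.7 and 30.8 TPM in young and 29.96 and 23.0 TPM in old WT mice.

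**Figure D1:**
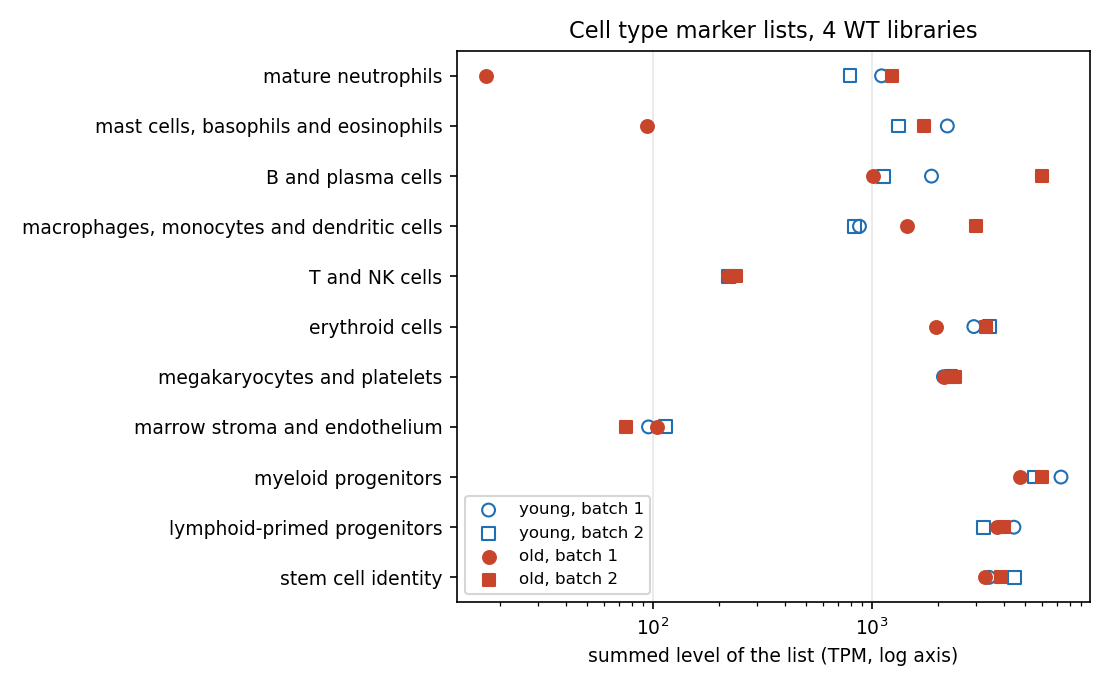
Summed levels of 11 cell type marker lists (TPM, log axis) in the 4 WT libraries, with circles for batch 1, squares for batch 2, open symbols for young and filled symbols for old mice. The old library of batch 1 lies far to the left for neutrophil markers (17.2 TPM) and for mast cell, basophil and eosinophil markers (94.1 TPM), and the old library of batch 2 to the right for B and plasma cell markers (5987 TPM).

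The first question was which genes changed with age and kept that change in both batches. Of 25543 genes tested with edgeR, 22 passed an adjusted p of 0.05, or 0.0861% of them. Of these, 17 were higher in old mice (0.0666%) and 5 were lower (0.0196%). A change was said to hold in both batches where the old library differed from the young one by 2-fold or more in the same direction in batch 1 and again in batch 2, on log2 CPM (counts scaled to library size). This was so for 19 of the 22 genes, 16 higher and 3 lower. The other 3 were Gvin1 and the immunoglobulin segments Ighv7-1 and Igkv6-32. With 2 libraries a side, an exact permutation test of a single gene cannot go below p = 0.33, so the calls rest on the spread that edgeR shares across genes and groups. By size alone, 2.72% of the 13966 genes of at least 2 TPM in either group were 2-fold higher in both batches and 0.48% lower. By any amount 16.3% were higher in both and 42.5% lower. Both old TPM levels lay above both young ones in 2215 of these genes and below both in 2446. After a correction for transcript length 6 genes passed, 6 higher and 0 lower, and with effective lengths as an offset 16 passed, 10 higher and 6 lower.

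**Figure D2:**
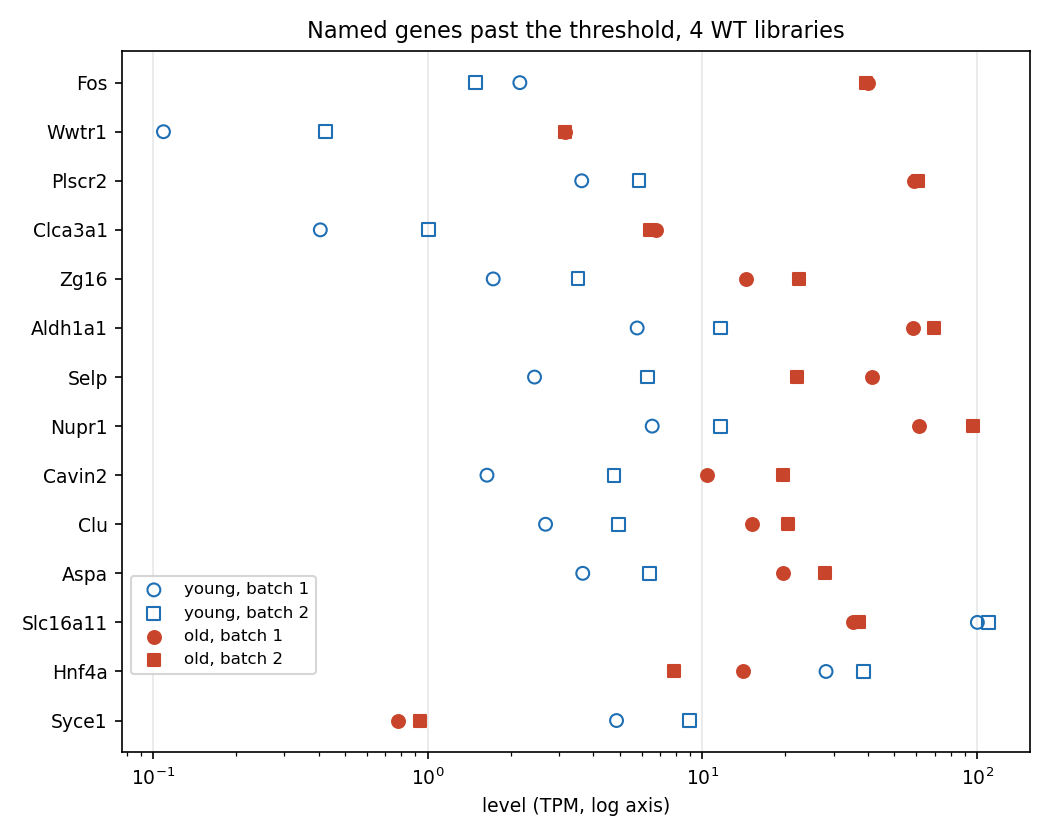
Level of 14 named genes (TPM, log axis) that passed the threshold and changed by 2-fold or more in both batches, in the 4 WT libraries, with circles for batch 1, squares for batch 2, open symbols for young and filled symbols for old mice. In 11 genes both old libraries lie above both young ones, and in Slc16a11, Hnf4a and Syce1 both lie below.

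Several of the called genes stood in a list of genes of aged stem cells, which was drawn up with results of these libraries known. Plscr2, of the phospholipid scramblase family of membrane proteins, was at 3.63 and 5.87 TPM in young mice (batch 1 and batch 2, the order used throughout) and at 59.0 and 61.1 TPM in old mice. The rise was 3.61 in log2 units (SE 0.30, edgeR, adjusted p = 0.00149), with 3.80 within batch 1 and 3.43 within batch 2. The old libraries differed from each other far less than from the young ones. Aldh1a1, which oxidises retinaldehyde to retinoic acid, was at 5.78 and 11.6 TPM in young and at 58.5 and 69.9 TPM in old mice, a rise of 2.85 (SE 0.33, adjusted p = 0.00961). Nupr1, a small chromatin-associated protein of the stress response, was at 6.56 and 11.7 TPM in young and at 61.3 and 96.5 TPM in old mice (log2 2.68, SE 0.32, adjusted p = 0.0109). For both genes the young library of batch 2 was the higher of the young ones, and the groups did not overlap.

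Selp encodes P-selectin, the adhesion receptor stored in platelets and endothelium. It was at 2.45 and 6.32 TPM in young mice and at 41.5 and 22.2 TPM in old mice (log2 2.82, SE 0.37, adjusted p = 0.0191), a larger difference in batch 1 (3.76) than in batch 2 (1.97). Cavin2, a coat protein of caveolae that is also abundant in platelets, was at 1.64 and 4.76 TPM in young and at 10.4 and 19.7 TPM in old mice (log2 2.24, SE 0.32, adjusted p = 0.0307). Clu, the secreted chaperone clusterin, was at 2.68 and 4.96 TPM in young and at 15.2 and 20.5 TPM in old mice (log2 2.21, SE 0.32, adjusted p = 0.0332). All 3 genes had both old levels above both young levels, as did 2215 of the 13966 genes of at least 2 TPM. Clca3a1, of a family of chloride channel regulators, was at 0.406 and 1.01 TPM in young and at 6.80 and 6.42 TPM in old mice (log2 3.26, SE 0.37, adjusted p = 0.00945). Wwtr1, the Hippo pathway coactivator TAZ, was at 0.109 and 0.423 TPM in young and at 3.15 TPM in both old mice (log2 3.67, SE 0.58, adjusted p = 0.0495). Both genes had low levels throughout, and the 2 old libraries were close to each other.

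These 8 genes were the called members of a list of 43 genes of aged stem cells, all of them tested. None of the list fell past the threshold, and 21 were 2-fold or more higher in both batches. Among the 37 members of at least 2 TPM in either group, 18 did so, beside the 2.72% of all genes of that level. The median change of the list was 1.25, against 0.0555 for all genes tested, and it was 1.19 within batch 1 and 1.14 within batch 2. The list was drawn up with results of these libraries known, so its direction is a description. Sult1a1, a sulfotransferase for phenols and hormones, lay just outside the threshold, at 13.2 and 14.3 TPM in young and 56.9 and 91.9 TPM in old mice (adjusted p = 0.0546). Slamf1, the surface receptor CD150 used to purify stem cells, measured 3.72 and 7.49 TPM in young and 10.8 and 13.7 TPM in old mice, without passing (adjusted p = 0.282). Other members differed little or not alike on both measures. Mmrn1, a platelet matrix protein, was at 31.5 and 127 TPM in young and 48.2 and 135 TPM in old mice. Vwf, the platelet-adhesion factor, differed on log2 CPM by 1.28 in batch 1 and by -0.38 in batch 2. In TPM it was higher in both batches, at 2.515 and 5.10 in young and 5.88 and 8.72 in old mice (adjusted p = 0.755, edgeR).

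**Figure D3:**
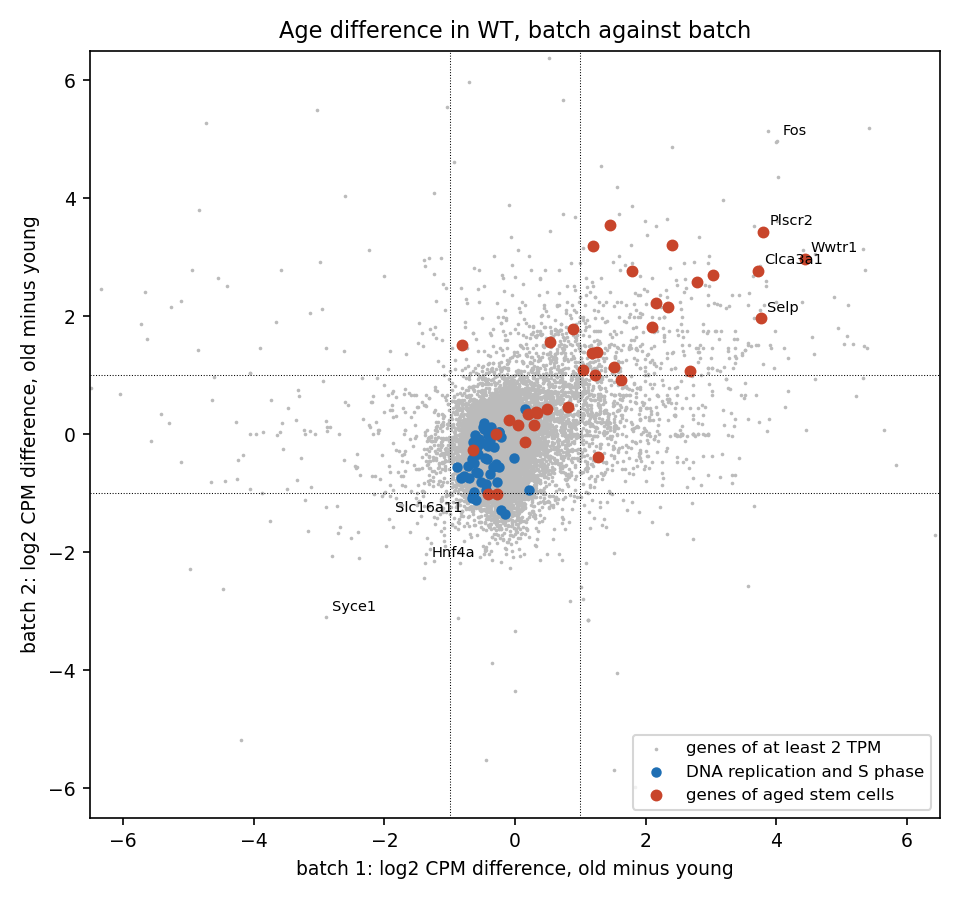
Age difference of each gene of at least 2 TPM (log2 CPM, old minus young) in batch 1 on the x axis and batch 2 on the y axis, with aged stem cell genes in red, DNA replication and S phase genes in blue, and dotted lines at a 2-fold change. Of 13966 genes, 33 lie outside the axes. The aged stem cell genes reach far into the upper right, where 18 of 37 pass both lines, and the S phase genes sit near the centre with 40 of 50 below 0 in both batches.

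The promoters of 3 called genes of this group are shown because their most abundant transcripts start within 7 bases of the RefSeq gene start. Each line is the 250 bases before the start, read 5′ to 3′ on the gene's strand (RefSeq, build GRCm38.p6). The windows are chr19:20601718-20601967, chr1:164115014-164115263 and chr1:51288876-51289125, all on the plus strand. Capitals mark CCAAT in either orientation, the site of the factor NF-Y. They also mark TGANTCA in either orientation, with any base in the middle, a loose pattern that takes in the site of Fos and Jun dimers.
Aldh1a1: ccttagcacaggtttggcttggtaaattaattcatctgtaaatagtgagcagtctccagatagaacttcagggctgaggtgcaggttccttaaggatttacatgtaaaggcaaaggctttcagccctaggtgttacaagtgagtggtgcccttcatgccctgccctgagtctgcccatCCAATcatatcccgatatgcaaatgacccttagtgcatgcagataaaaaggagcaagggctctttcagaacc
Selp: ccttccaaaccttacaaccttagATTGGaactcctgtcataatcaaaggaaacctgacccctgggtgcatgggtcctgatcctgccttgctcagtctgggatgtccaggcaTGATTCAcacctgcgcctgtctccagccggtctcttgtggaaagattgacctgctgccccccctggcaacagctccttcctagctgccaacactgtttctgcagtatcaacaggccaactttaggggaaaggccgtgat
Cavin2: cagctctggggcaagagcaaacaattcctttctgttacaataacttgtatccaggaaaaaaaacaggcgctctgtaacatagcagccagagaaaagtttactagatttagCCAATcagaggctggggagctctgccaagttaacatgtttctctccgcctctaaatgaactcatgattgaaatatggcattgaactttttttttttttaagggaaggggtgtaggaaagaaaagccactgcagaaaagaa
Each of the 3 held a CCAAT, and the window of Selp also held a match to the loose TGANTCA pattern, with T in the middle. Of 13 called genes with a window in the table, 7 held CCAAT and 1 held TGANTCA. Over the first listed windows of 15143 tested genes the shares were 35.7% and 5.58%. The TGANTCA search was added after the levels of Fos had been seen. A match is a description of letters, not a site shown to be used.

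Fos, the AP-1 transcription factor subunit that is switched on within minutes of a stimulus, had the largest fitted rise among the 14 plotted genes. Its level was 2.16 and 1.49 TPM in young and 39.9 and 39.5 TPM in old WT mice. The change was 4.52 in log2 units (SE 0.42, adjusted p = 0.00285), with 4.003 within batch 1 and 4.97 within batch 2. In KO littermates Fos was at 2.92 and 2.03 TPM in young and 3.65 and 5.45 TPM in old mice, a change of 0.78 (adjusted p = 0.22). The difference between the genotypes' age changes was -3.74 and did not pass its own test (adjusted p = 0.222), so the rise is not shown to depend on genotype.

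Fos was the only member called among 23 tested immediate early and stress genes. Its partner Jun was at 9.22 and 6.82 TPM in young and 16.5 and 69.1 TPM in old mice, a difference of 0.53 in batch 1 and 3.45 in batch 2 (adjusted p = 0.319). Junb was at 90.4 and 67.0 TPM in young and 146 and 101 TPM in old mice (adjusted p = 0.328). Egr1, another early-response factor, was at 29.7 and 32.8 TPM against 33.6 and 37.95 TPM (adjusted p = 0.841). The list was higher in both batches in 10 of 23 members and lower in both in 2, with medians of -0.12 in batch 1 and 0.55 in batch 2. At 2 TPM or more, 42.1% were higher in both and 10.5% lower, beside 16.3% and 42.5% of all genes of that level.

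Further genes outside the list of aged stem cells rose in both batches. Zg16, a lectin of secretory granules, was at 1.73 and 3.52 TPM in young and 14.5 and 22.4 TPM in old mice (log2 2.91, SE 0.43, adjusted p = 0.0348). Aspa, the enzyme that cleaves N-acetylaspartate, was at 3.67 and 6.42 TPM in young and 19.6 and 28.0 TPM in old mice (log2 2.0, SE 0.31, adjusted p = 0.0495). Both were among the weaker calls. The lincRNA Gm5833 was at 0.224 and 1.06 TPM in young and 9.52 and 9.57 TPM in old mice (log2 4.20, adjusted p = 0.0178), and the lincRNA Gm10419 at 1.42 and 2.71 against 7.82 and 15.4 TPM (log2 2.52, adjusted p = 0.0348). These predicted loci fall outside the naming rule and were added after their values were seen.

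Among called genes, 3 fell by 2-fold or more in both batches. Slc16a11, a monocarboxylate transporter, was the most abundant of the 14 plotted genes in young cells, at 100.2 and 110.0 TPM, and it was at 35.3 and 37.2 TPM in old cells (log2 -1.69, SE 0.24, adjusted p = 0.0307). Hnf4a, a nuclear receptor best known from liver and gut, was at 28.2 and 38.6 TPM in young and 14.1 and 7.91 TPM in old mice (log2 -1.79, SE 0.26, adjusted p = 0.0317). Syce1, a component of the synaptonemal complex that joins chromosomes in meiosis, was at 4.87 and 8.95 TPM in young and 0.777 and 0.940 TPM in old mice (log2 -3.04, SE 0.39, adjusted p = 0.0178). Of the 13966 genes of at least 2 TPM, 2446 had both old levels below both young ones, among them all 3 of these. Their calls were lost without the old library of batch 1, with adjusted p of 0.295, 0.0652 and 0.0652, and without that of batch 2, with 0.153, 0.179 and 0.145.

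Antigen receptor segments made up 4 of the 22 calls, and such segments are transcribed in B lineage cells. Ighv6-3 was at 4.82 and 5.14 TPM in young and 106.9 and 107.0 TPM in old WT mice (log2 4.34, adjusted p = 0.0364). Igkv4-72 was at 0.700 and 0 TPM in young and 48.1 and 77.5 TPM in old mice (log2 6.93, adjusted p = 0.0495). Igkv6-32 was listed at 0 in both young mice, at 0.378 TPM in the old mouse of batch 1 and at 60.9 TPM in that of batch 2. Ighv7-1 was at 436 TPM in the young mouse of batch 1, at 0.194 TPM in the old mouse of that batch and at 0 in batch 2. The joining chain gene Jchain, a plasma cell marker, was at 75.1 and 49.4 TPM in young and 22.3 and 294 TPM in old mice, so the batches went opposite ways. The part of plasma cell RNA in these calls was not tested. Gvin1, a large interferon-inducible GTPase, was at 3.80 TPM in the young WT mouse of batch 1 and at 3.32 TPM in its KO littermate, and it was listed at 0 in the other 6 libraries of the series. Its call therefore separates 1 litter from the rest.

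A called pseudogene, Gm29216 (chr1:24615706-24616197, minus strand, mm10), led to a group of related loci. It was at 855 and 1913 TPM in young and 3078 and 4359 TPM in old WT mice (log2 1.41, SE 0.19, adjusted p = 0.0229). Over 483 aligned bases its annotated transcript differed from the mitochondrial gene mt-Co1, a subunit of cytochrome oxidase, at 1 base. The stretch around that base is shown for both, from GENCODE vM21 transcripts, with the differing base in capitals.
Gm29216: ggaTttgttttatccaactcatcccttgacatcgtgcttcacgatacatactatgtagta
mt-Co1: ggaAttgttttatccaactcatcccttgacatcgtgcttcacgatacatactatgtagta
The deposited tables held none of the mitochondrially encoded genes, so reads from mitochondria and from such nuclear copies cannot be told apart. A search of the tested pseudogenes against the 37 mitochondrial transcripts, made after Gm29216 was seen, found 11 loci with at least 95% identity over at least 50% of their length. All 11 were higher in old mice within both batches, with a median log2 change of 0.81, and 1 of them passed the test. Of all 25543 genes tested 8335 were higher in both, and of those of at least 2 TPM 16.3%. Gm13341 lay below that level, at 0.561 TPM or less in WT mice. Across batches the levels of old and young mice overlapped for Gm13340, Gm13339, Gm10222, Gm28438 and Gm13341. Gm10925, a copy of the ATP synthase gene mt-Atp6, was at 1481 and 2499 TPM in young and 3515 and 5158 TPM in old mice (adjusted p = 0.131). Gm28437, a copy of mt-Co3, was at 679 and 972 TPM in young and 1419 and 2162 TPM in old mice (adjusted p = 0.28). Summed over the 11 loci the level was 3769 and 6643 TPM in young and 9521 and 13890 TPM in old WT mice. In the KO mice the sums were 5483 and 11280 TPM at young and 12130 and 18340 TPM at old age, higher in old mice in both batches there too. The call of Gm29216 was lost without the old library of batch 1 (adjusted p = 0.131) or of batch 2 (0.0621), and after correcting for length (0.244).

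**Figure D4:**
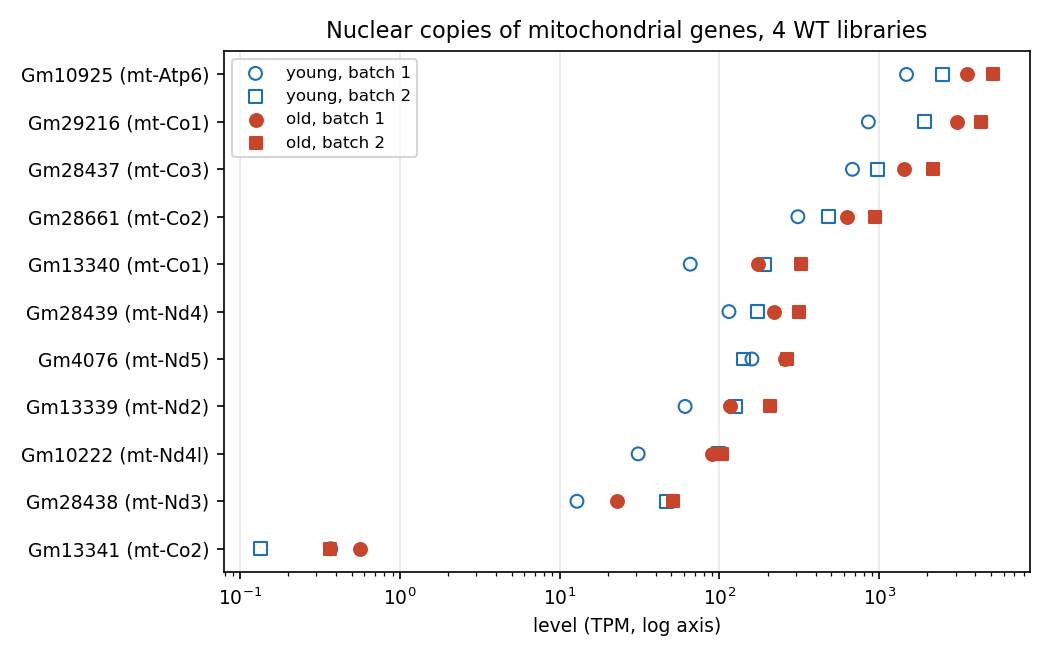
Levels (TPM, log axis) of 11 nuclear pseudogenes that match mitochondrial genes (the match in brackets) in the 4 WT libraries, with circles for batch 1, squares for batch 2, open symbols for young and filled symbols for old mice. Within each batch the filled symbol lies to the right of the open one for every locus.

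The nuclear genes of the respiratory chain split between the batches. Of 41, none passed, and 3 were higher in both batches and 4 lower. Their median was -0.32 in batch 1 and 0.31 in batch 2, with 0.01 in the fit over both, 0.36 without the old library of batch 1 and -0.32 without that of batch 2. Atp5b, of the same ATP synthase as mt-Atp6, differed by -0.22 (SE 0.18, adjusted p = 0.581). Among 50 cytosolic ribosomal protein genes none passed, 14 were higher in both batches and 1 lower, with medians of -0.08 in batch 1 and 0.35 in batch 2. Over all genes of at least 2 TPM, 16.3% were higher in both and 42.5% lower.

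Genes of DNA replication were lower in old cells by small amounts, and none passed the test. Of 50 measured members, 40 were lower in both batches and 1 was higher in both, where 42.5% of all genes of at least 2 TPM were lower in both, and 23 had an unadjusted p under 0.05, all of them lower. The median change was -0.43, against -0.165 for all genes of at least 2 TPM. Within batch 1 the list median was -0.47, and within batch 2 it was -0.41. The helicase subunit Mcm5 was at 303 and 264 TPM in young and 217 and 150 TPM in old mice (log2 -0.75, SE 0.17, adjusted p = 0.282). Mcm6 of the same ring was at 606 and 698 TPM in young and 512 and 420 TPM in old mice (log2 -0.62, SE 0.17, adjusted p = 0.319). Uhrf1, which carries DNA methylation through replication, was at 176 and 218 TPM in young and 143 and 94.6 TPM in old mice (adjusted p = 0.227). In all 3 both old levels lay below both young levels, as in 2446 of the 13966 genes of at least 2 TPM. E2f1, the factor that drives such genes into S phase, was at 66.8 and 58.3 TPM in young and 44.6 and 36.5 TPM in old mice (adjusted p = 0.319). After the length correction the median of the list was -0.18, where that of all genes tested moved from 0.0555 to 0.209. The list median kept its sign in all 16 alternative fits.

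The promoters of Mcm6 and Mcm5 are shown as 2 of the replication genes that hold an E2F type site, again as the 250 bases before the RefSeq start. They lie at chr1:128359706-128359955 on the minus strand and chr8:75109259-75109508 on the plus strand. Capitals mark CCAAT and the E2F type sites TTTGGCGC, TTTCCCGC, TTTGGCGG and TTTCCCGG, in either orientation.
Mcm6: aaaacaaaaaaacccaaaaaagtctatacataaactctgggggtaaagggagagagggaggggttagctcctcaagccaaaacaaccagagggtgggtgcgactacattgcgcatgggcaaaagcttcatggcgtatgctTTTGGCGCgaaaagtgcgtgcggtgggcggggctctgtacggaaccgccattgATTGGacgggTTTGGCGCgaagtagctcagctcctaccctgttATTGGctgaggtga
Mcm5: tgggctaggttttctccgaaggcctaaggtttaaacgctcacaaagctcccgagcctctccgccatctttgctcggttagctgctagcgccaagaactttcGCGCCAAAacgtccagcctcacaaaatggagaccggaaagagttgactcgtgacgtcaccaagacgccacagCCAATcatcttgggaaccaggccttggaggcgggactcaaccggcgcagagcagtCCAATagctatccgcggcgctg
Mcm6 held 2 E2F type sites and 2 CCAAT, and Mcm5 held 1 and 2. Over the replication list, 9 of 40 first listed windows held an E2F type site (22.5%), against 3.98% of the 15143 tested genes. The shares with CCAAT were 62.5% and 35.7%. These letters mark a class of promoters and say nothing on whether E2F activity changed.

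Lists of mitosis, repair and chromatin genes also held no called gene. Of 40 genes of G2 and mitosis 28 were lower in both batches and 0 higher in both, with a median of -0.33. The proliferation marker Mki67 was at 14.2 and 20.1 TPM in young and 15.2 and 12.2 TPM in old mice, so the groups overlapped. Cdk1, the kinase of mitotic entry, differed by -0.47 in batch 1 and 0.03 in batch 2 (adjusted p = 0.589). Of 36 DNA repair genes 21 were lower in both batches and 0 higher (median -0.39), and of 36 chromatin regulators 25 were lower and 1 higher (median -0.34). Counting members of at least 2 TPM, 70% of mitosis, 60% of repair and 70.6% of chromatin genes were lower in both. The share over all genes of that level was 42.5%, with a median change of -0.165. Within batches 1 and 2 the medians were -0.22 and -0.40 for G2 and mitosis, -0.30 and -0.52 for repair, and -0.23 and -0.44 for chromatin regulators. After the length correction the medians were -0.07 for G2 and mitosis, -0.10 for repair and -0.03 for chromatin regulators. That correction also moved the median of all genes tested, from 0.0555 to 0.209. Transcript length moved with these differences in batch 2, and its part in them was not tested. Among 9831 protein-coding genes above 5 TPM the longest 10% had a median change of -0.55, with -0.19 in batch 1 and -0.84 in batch 2. The shortest 10% had one of 0.10, with -0.22 in batch 1 and 0.39 in batch 2.

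**Figure D5:**
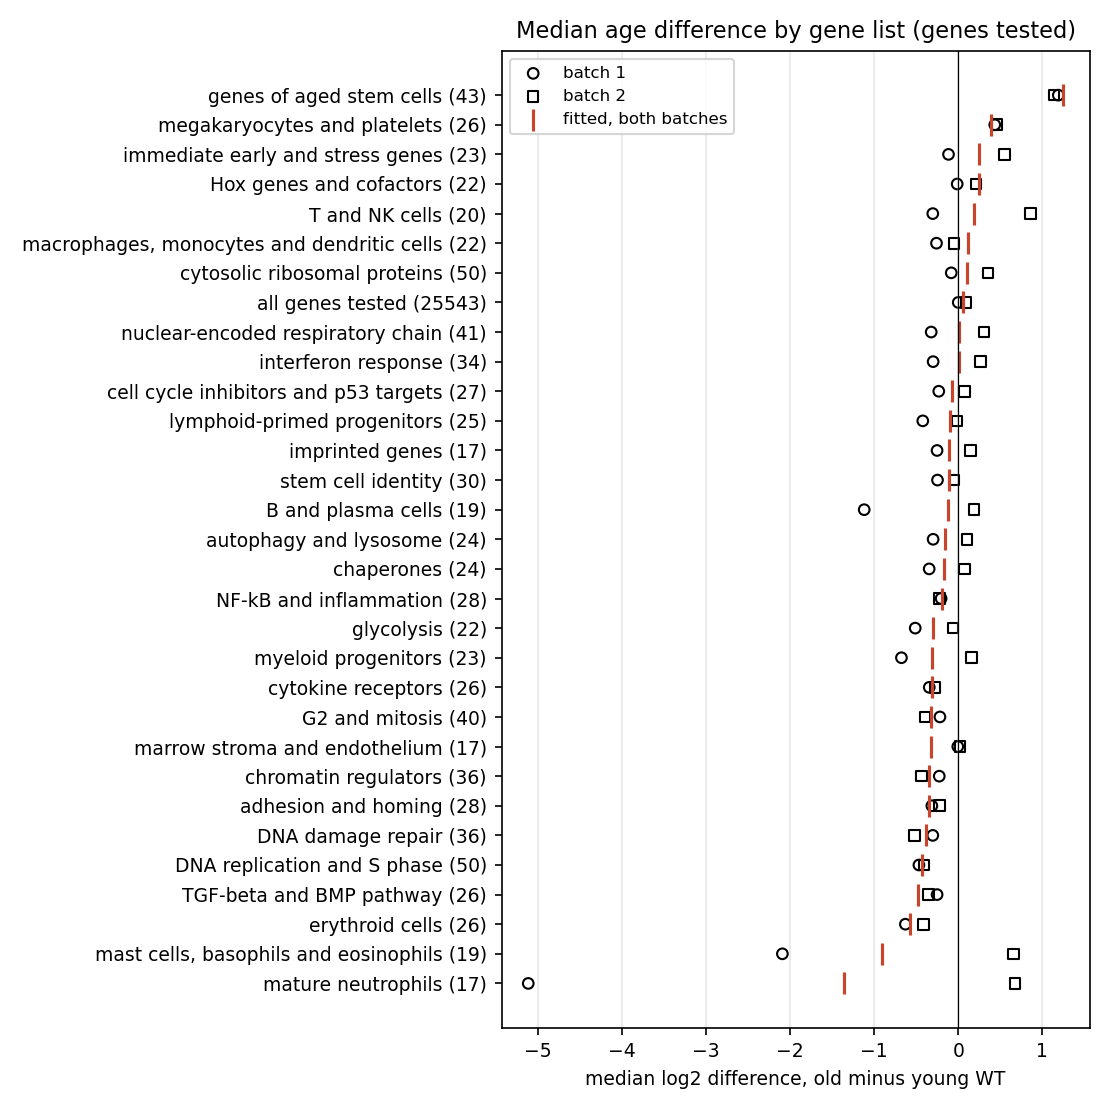
Median log2 difference between old and young WT mice for 30 gene lists and all genes tested (number tested in brackets), within batch 1 (circles), within batch 2 (squares) and in the fit over both (red bars). The list of aged stem cell genes has the highest median, 1.25, with both batches together, while neutrophil and mast cell lists split widely between the batches.

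Lists of stem cell and lineage genes gave mixed results. Of 30 stem cell identity genes none passed, 6 were higher in both batches and 14 lower. Counting members of at least 2 TPM, 20.7% were higher and 48.3% lower, near the 16.3% and 42.5% of all genes of that level. Fgd5, a regulator of Cdc42 that marks stem cells, measured 6.66 and 14.7 TPM in young and 4.44 and 5.72 TPM in old mice (adjusted p = 0.321). Procr, the protein C receptor, differed by -0.47 in batch 1 and 0.76 in batch 2. Flt3, the receptor of lymphoid-primed progenitors, was at 325 and 480 TPM in young and 212 and 246 TPM in old mice, lower by a like amount in both batches without passing (log2 -0.89, SE 0.21, adjusted p = 0.302). The whole lymphoid-primed list had 5 of 25 members higher and 10 lower in both batches, and Satb1, a chromatin organiser of lymphoid fate, differed by -0.06 (SE 0.24). At 2 TPM or more, 17.4% of this list were higher and 43.5% lower, again near the shares of all genes.

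Platelet genes leaned upward. Of 26 megakaryocyte and platelet genes, Selp and Cavin2 were called higher, where 0.0666% of all genes tested were. Both were already counted among the called genes of aged stem cells. In the list 13 were higher in both batches and 4 lower. The median was 0.39, with 0.43 and 0.46 in batches 1 and 2. At 2 TPM or more, 56.5% of the list were higher in both and 3 members lower. Of all genes of that level 16.3% were higher and 42.5% lower. The summed level of the list hardly differed, at 2122 and 2298 TPM in young and 2142 and 2395 TPM in old mice. Itgb3, the platelet integrin subunit, was at 0.563 and 3.33 TPM in young and 4.47 and 6.49 TPM in old mice (adjusted p = 0.28), and Gp1bb, of the von Willebrand factor receptor, was at 3.37 and 2.78 against 7.68 and 5.28 TPM (adjusted p = 0.321). Erythroid genes leaned downward, with 15 of 26 lower in both batches, 1 higher and none called (median -0.58). At 2 TPM or more, 60.9% of them were lower in both, beside 42.5% of all genes of that level. Hbb-bt, a beta-globin, was at 93.4 and 101.9 TPM in young and 31.7 and 49.3 TPM in old mice (adjusted p = 0.319). The old library of batch 1 had the lowest Hbb-bt level and also the least granulocyte RNA, and the part of mature cells in the globin values was not tested.

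Inflammation lists held no called gene. Of 34 interferon response genes none passed and 6 were higher and 8 lower in both batches. Their median was -0.30 in batch 1 and 0.26 in batch 2, and over both it was 0.40 without the old library of batch 1 and -0.42 without that of batch 2. Of 28 NF-kB and inflammation genes none passed and 7 were higher and 12 lower. The class II antigen presentation genes, which stood in the macrophage list, were higher in both old mice. H2-Eb1 was at 56.5 and 51.8 TPM in young and 197 and 365 TPM in old mice (log2 2.27, adjusted p = 0.319), and Cd74, the class II chaperone, at 258 and 296 against 498 and 1232 TPM (log2 1.52, adjusted p = 0.322). In KO mice H2-Eb1 differed by 3.30 in batch 1 and 0.04 in batch 2, and Cd74 by 2.36 and -0.46. The old WT library of batch 2, the highest for both genes, also held the most B and plasma cell RNA, whose part was not tested. The whole macrophage, monocyte and dendritic list of 22 genes summed to 878 and 835 TPM in young and 1448 and 2987 TPM in old mice. Class II genes made up most of these sums. Over the whole list 4 members were higher in both batches and 5 lower, with medians of -0.26 in batch 1 and -0.05 in batch 2. At 2 TPM or more, 28.6% of the list were higher in both and 28.6% lower. Of 27 tested cell cycle inhibitors and p53 targets none passed, 7 were higher in both batches and 10 lower, and the median was -0.07. At 2 TPM or more, 20.8% were higher and 41.7% lower, near the shares of all genes. From this list, Cdkn1a (p21) was at 13.9 and 10.4 TPM in young and 40.6 and 16.9 TPM in old mice (adjusted p = 0.319). Gadd45g, a growth arrest gene, was at 6.57 and 6.26 TPM in young and 37.2 and 20.3 TPM in old mice, just outside the threshold (adjusted p = 0.0712).

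Apart from the tests, 447 genes of at least 2 TPM differed by 2-fold or more in the same direction in both batches, 380 higher and 67 lower, while 95 did so in opposite directions. Protein-coding genes were 29.5% of the genes higher in both, 89.6% of those lower and 83.2% of all 13966. Pseudogenes were 18.9% of those higher, against 4.22% of all. RNA outside protein-coding genes made up 6.59% and 6.48% of TPM in young and 8.59% and 9.45% in old WT libraries. Genes with at least 1 count numbered 29956 and 26340 in young and 35556 and 30976 in old ones. The part of these library-wide differences in the 380 and 67 genes was not tested.

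The KO littermates give the same age contrast in mice that the WT comparison did not use, though they share its batches, litters and estimate of spread. The old KO library of batch 1 was at 3.33 TPM of Xist and 0.0229 TPM of Ddx3y. The other KO libraries had 0.0612 TPM of Xist or less, so age and sex-linked RNA cannot be told apart in batch 1 there either. Of the 19 genes called with a 2-fold change in both WT batches, 18 went the same way in both KO batches, 16 by 2-fold or more in each, and 8 were called in KO mice. The exceptions by fold were Fos, Gm29216 and Ighv6-3. For comparison, 49.2% of the 447 genes above were 2-fold in the same direction in both KO batches. Plscr2 was at 4.38 and 7.10 TPM in young and 63.7 and 58.0 TPM in old KO mice, a change of 3.60 beside 3.61 in WT. Clu differed by 2.94 and Hnf4a by -2.52 in KO mice. The median of the aged stem cell list was 1.36 in KO mice, and that of the replication list -0.38. A test of whether the age change differed between genotypes called 1 gene of 25543, Ighv7-1 (edgeR, adjusted p = 0.0068), with 505 genes at an unadjusted p under 0.05.

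The calls differed in how far they rested on single libraries. Over 16 alternative fits Plscr2 passed in 15, Fos and Nupr1 in 13 each, Clca3a1 in 12, Selp and Cavin2 in 10 each, Aldh1a1 in 9 and Clu in 8. Wwtr1, Zg16 and Aspa passed in 5 each. Without the old library of batch 2, 5 of the 22 genes passed: Plscr2, Fos, Clca3a1, Gvin1 and Ighv7-1. The old library of batch 1 had the least granulocyte RNA and the only Xist signal among the WT libraries. Without it the rises of the 8 aged stem cell genes ran from 2.38 (Selp) to 3.70 (Plscr2). Without the young library of batch 2, 15 passed. Without the young library of batch 1, 20 of the 22 passed and the count of all calls rose to 1523, 379 higher and 1144 lower.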

How the data were processed

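PolyA RNA of LSK cells was measured in 8 libraries, of which the 4 WT ones form the comparison. The submitters' processing notes name kallisto, DESeq2 and the mm10 genome, without versions. The authors deposited estimated counts and TPM for 115088 transcripts per library, per the file headers, with effective lengths. Of these, 114200 matched GENCODE vM21 and were summed to 47311 genes, and the unmatched held 0.26% to 0.47% of the counts of a WT library.

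Rounded sums were tested with edgeR 4.0.16 (TMM, filterByExpr with minimum count 10 and minimum total 15, quasi-likelihood test) in R 4.3.3, in a model of the 4 groups and batch over all 8 libraries with 3 residual degrees of freedom. P-values were adjusted by Benjamini-Hochberg over 25543 genes at 0.05. Batch was the block because each group has 1 library in each, and across genes the deviations of same-batch libraries from their group means correlated at 0.31. Within-batch differences are log2 CPM with a prior count of 2. The function was tested on simulated counts. Alternatives used limma 3.58.1 and DESeq2 1.42.0.

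Named genes were those called with at least 2 TPM and a 2-fold change in both batches, without predicted loci, receptor segments, pseudogenes and sex-linked genes, then up to 4 called members of each list or the 2 most abundant, and a fixed set of stem cell genes. Outside this rule, and chosen after their values were seen, are Ear1, Cd3e, Sult1a1, Jun, Junb, Egr1, Jchain, Uhrf1, E2f1, Fgd5, Itgb3, Gp1bb, Hbb-bt, H2-Eb1, Cdkn1a, Gadd45g, the mitochondrial copies and the genes under Other observations. The members and the 31 lists were chosen with earlier results of these data known. The labels do not say that each library is 1 mouse, so p-values measure the spread between these samples. At these depths 2 libraries of a group differed far beyond counting error, with chi-square over degrees of freedom of 74.9 in old and 230.3 in young WT.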

Additional observations from a re-analysis of the deposited data

Results flagged for a closer look

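The immunoglobulin segment Ighv7-1 was the 1 gene whose age change differed between WT and KO mice by the interaction test (edgeR, adjusted p = 0.0068). It was at 436 TPM in the young WT mouse of batch 1 and at most 0.194 TPM in the other WT libraries, and it was at 26.03 TPM in the old KO mouse of batch 1 and at 0 in the other KO libraries. Its age call in WT mice was kept in 5 of the 14 alternative fits that could test it.

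Ighv6-3 went in opposite directions in every WT and KO pair, higher in both old WT mice and lower in both old KO mice, with a difference between the genotypes' log2 changes of -5.0. That difference did not pass its test (adjusted p = 1.0). KO levels were 4.21 and 3.58 TPM in young and 3.66 and 0.882 TPM in old mice.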

How the results depend on the processing

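Over the alternatives no called gene reversed, and calls depended on the settings more than directions did. The 22 calls (19 with a 2-fold change in both batches, 1 interaction) became 1015, 455 and 75 without a filter on low counts, and 4, 4 and 0 with at least 1 CPM in 4 samples. They became 369 and 277 in a fit of the 4 WT samples alone, 393, 211 and 10 with DESeq2, 6, 6 and 0 with the length correction, and 6 and 4 at an adjusted p of 0.01. With no replicate block (batch left out of the model) they were 2, 2 and 0, as with limma on log2(TPM + 1) and on log2(TPM + 0.1), and with limma and no filter 0, 0 and 0. Leaving out 1 library gave 19 to 1523 calls, 3 to 210 with both batches and 0 to 27 interactions. Without litter 1 there were 42 calls, 13 of them shared, and 9 interactions. A replicate block by litter could not be fitted for age, since each litter has 1 age. The cause of these differences was not tested. The median change of all genes lay at 0.0555, at 0.209 with the length correction and at 0.16 with limma on log2(TPM + 0.1), so changes near 0.2 rest on the scaling. The medians of the aged stem cell list (0.82 to 1.49) and the replication list (-0.47 to -0.18) kept their sign in all 16 alternative fits.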

Other observations

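A second meiosis gene lay below its young levels beside Syce1. The genes of these paragraphs were chosen after their values were seen. Stag3, the meiotic cohesin subunit, was at 5.82 and 13.8 TPM in young and 1.91 and 2.67 TPM in old WT mice (log2 -1.67, SE 0.36, adjusted p = 0.218), and it differed by -1.53 in KO mice. Igf2bp2, an RNA-binding protein of fetal and growing cells, was at 5.08 and 7.55 TPM in young and 2.46 and 2.44 TPM in old WT mice (log2 -1.50, adjusted p = 0.204) and differed by -0.14 in KO mice, where young levels were already 2.19 and 2.69 TPM. The niche chemokine Cxcl12, which stromal cells make, was at 7.78 and 7.98 TPM in both young WT mice and at 0.234 and 1.76 TPM in old ones (adjusted p = 0.199), while the KO libraries stayed at 0.895 TPM or less at both ages.

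Mast cell and basophil proteases did not share 1 pattern. Cma1 was at 28.2 and 16.9 TPM in young and 4.95 and 3.72 TPM in old mice (adjusted p = 0.129), and Tpsb2 at 38.1 and 24.2 against 8.21 and 6.59 TPM (adjusted p = 0.319). Prss34 was at 63.2 and 78.8 TPM in young and 20.7 and 193.3 TPM in old mice (adjusted p = 0.738), and the whole list had a median of -2.09 in batch 1 and 0.65 in batch 2. Bmp4, a secreted growth factor, was at 0.722 and 1.90 TPM in young and 5.05 and 11.5 TPM in old WT mice (adjusted p = 0.0755), and it differed by 2.70 in KO mice (adjusted p = 0.0509).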
